A study of Homo sapiens with 6 samples.

Results

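SR proteins and hnRNP proteins are the main families of regulators that decide which exons enter an mRNA. They were chosen by name, as protein-coding genes whose symbol is SRSF with a number or begins with HNRNP. The rule found 39 of the 58735 genes in the count table, 12 SR genes and 27 hnRNP genes. It used no measured value, but the families were chosen with earlier results of these data known.

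RNA was sequenced from a human colorectal cancer cell line, in 3 control libraries and 3 libraries in which CNOT7 was knocked down. CNOT7 is a deadenylase of the CCR4-NOT complex, which shortens poly(A) tails before an mRNA is degraded. The labels name the line SW480, while the study's text names HCT116 for its RNA sequencing, and both are established lines. The knockdown cells carried a stable lentiviral short hairpin RNA against CNOT7, the control cells carried a control hairpin, and the labels give no treatment for either group. Which of the 2 hairpins each knockdown library carried is not stated, nor whether the libraries came from separate cultures, so p-values measure only the spread between these libraries.

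SR proteins join RNA recognition motifs to a tail rich in arginine and serine, the RS domain. They usually bind exons and help the spliceosome to use the nearby splice sites. The hnRNP proteins coat new transcripts, and many of them favour exon skipping, so the balance of both families is known to shift splice site choice. Many genes of both families limit their own protein by including a poison exon, whose stop codon sends the mRNA to nonsense-mediated decay.

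CNOT7 was at 169, 191 and 176 CPM (counts scaled to the size of the library) in control libraries 1, 2 and 3, and at 43.4, 47.2 and 38.6 CPM in knockdown libraries 1, 2 and 3. The groups did not overlap. The log2 fold change, knockdown over control, was -2.05 (SE 0.0734, n = 3 per group, adjusted p = 2.64e-12, edgeR's quasi-likelihood test). The libraries held 23788451 to 25982493 counts in the control group and 27523812 to 29104872 counts in the knockdown group. Of 11 markers of colorectal epithelium, only 7 had enough counts for this test. EPCAM and CDX2 were detected and KRT20 was near 0. The summed level was 5550 to 5970 CPM in control and 5130 to 5680 CPM in knockdown libraries. KRT8 alone averaged 2750 CPM in control and 2480 CPM in knockdown libraries. VIL1 and CDH1 rose, at log2 fold changes of 0.72 (SE 0.0955) and 0.51 (SE 0.0794), and KRT19 and KRT8 fell, with calls that 9 and 8 of 14 alternative fits kept. Both calls were lost with cyclic loess (adjusted p = 0.212 and 0.448), and the groups of KRT8 overlapped. The 6 fibroblast markers summed to at most 12.0 CPM, the 5 leukocyte markers to at most 0.94 CPM and the 4 endothelial markers to at most 3.48 CPM in any library, and COL3A1 and DCN were at 0.

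Of the 39 genes, 33 had enough counts for the test. The other 6 are SRSF12, with 6 counts in all libraries together, the readthrough gene HNRNPUL2-BSCL2 with 2, and HNRNPCL1, HNRNPCL2, HNRNPCL3 and HNRNPCL4 with 0. HNRNPA1P48, annotated as protein-coding although its symbol is that of a pseudogene, was tested, at 11.2 CPM in control cells. Here a gene is said to rise or fall where its adjusted p from the quasi-likelihood test of edgeR over all 17574 tested genes was under 0.05.

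With CNOT7 knockdown, 14 of the 33 tested genes fell and 1 rose. The falls were 6 of 11 SR genes, SRSF1, SRSF2, SRSF3, SRSF6, SRSF7 and SRSF8, and 8 of 22 hnRNP genes, led by HNRNPAB and HNRNPH1. The rise was SRSF10. In a bulk sample fewer cells with an mRNA and less of it per cell cannot be told apart. Every change was modest, and the lowest fitted level was 74.0% of control, for HNRNPAB. Of all tested genes, 25.2% changed in either direction, 11.9% fell and 13.3% rose, against 42.4% of the tested SR and hnRNP genes that fell. Nearly all of these genes are abundant, and among the 6578 tested genes with an average log2 CPM of at least 5, a limit chosen after the data were seen, 20.7% fell and 10.6% rose. The fold change of all tested genes had a Spearman correlation of -0.23 with the average level, which is given without a test because genes are not independent.

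**Figure D1:**
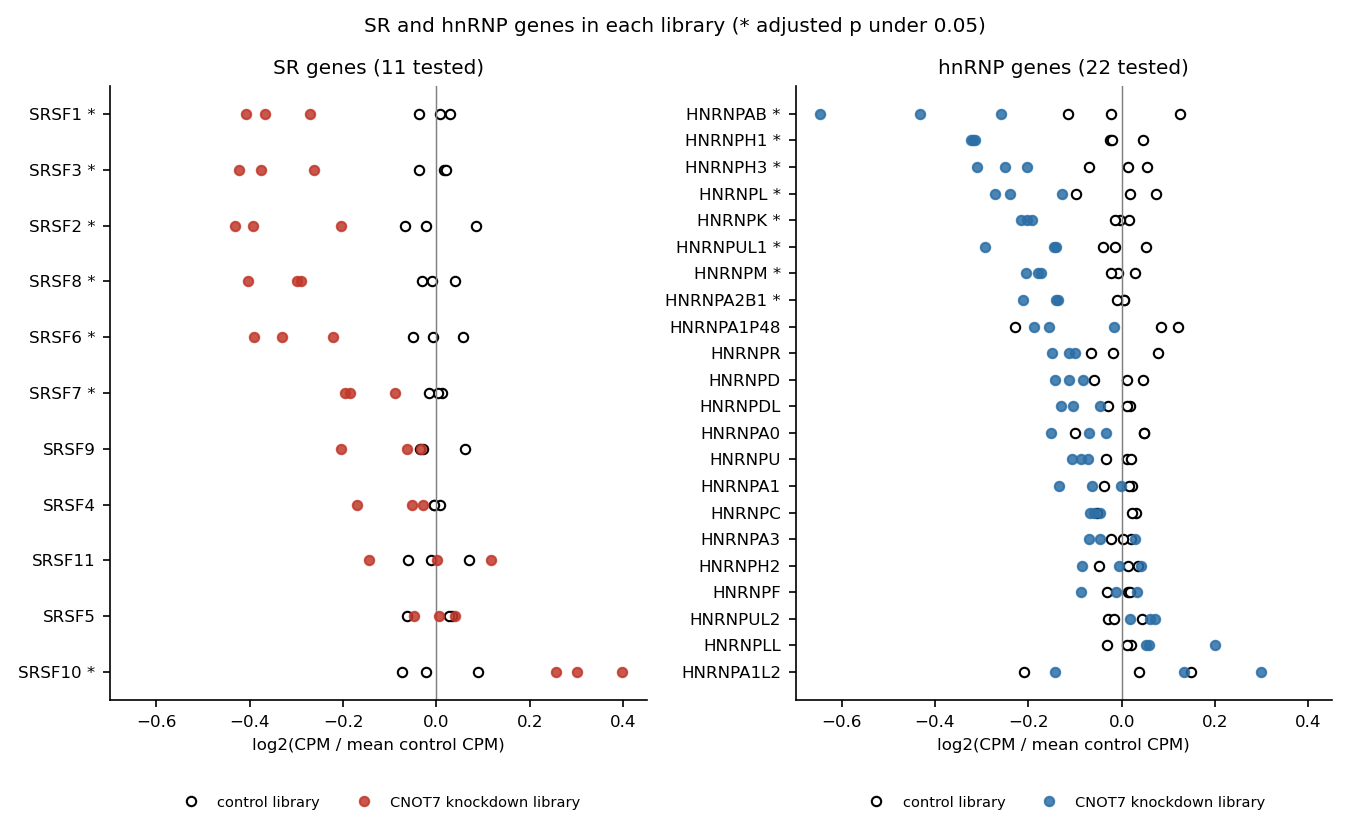
Each point is 1 library, as the log2 ratio of its CPM to the mean CPM of the 3 control libraries (open points control, filled points CNOT7 knockdown), for the 11 tested SR genes on the left and the 22 tested hnRNP genes on the right. Asterisks mark genes with an adjusted p under 0.05, and SRSF10 is the gene with an asterisk whose knockdown libraries all lie to the right of the control libraries.

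The promoters of a pair of SR genes and a pair of hnRNP genes that fell are shown as examples. RefSeq promoter windows on GRCh38.p14, from 250 bases before to 50 bases after the start, were at hand for 10 of the 11 tested SR genes and 20 of the 22 tested hnRNP genes. For SRSF3 and SRSF6, and for HNRNPAB and HNRNPH1, the 120 bases before the RefSeq start are printed 5′ to 3′ on the strand of the gene, and capitals mark 3 promoter motifs, read on either strand. The CCAAT box is CCAAT. The TATA box is written TATAAA, and the GC box is written GGGCGG. The last 9 bases of the SRSF3 stretch and the last 26 of the HNRNPAB stretch lie in exons of transcripts that GENCODE starts further upstream.
SRSF3, chr6:36594242-36594361, plus strand: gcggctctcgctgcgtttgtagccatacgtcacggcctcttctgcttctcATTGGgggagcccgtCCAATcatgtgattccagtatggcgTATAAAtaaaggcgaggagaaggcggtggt
SRSF6, chr20:43457776-43457895, plus strand: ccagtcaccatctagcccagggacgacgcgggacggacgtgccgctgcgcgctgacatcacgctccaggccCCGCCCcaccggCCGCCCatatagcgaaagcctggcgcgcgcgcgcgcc
HNRNPAB, chr5:178204413-178204532, plus strand: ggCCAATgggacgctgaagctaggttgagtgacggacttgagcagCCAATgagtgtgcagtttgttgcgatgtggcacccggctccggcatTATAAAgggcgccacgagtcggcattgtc
HNRNPH1, chr5:179634785-179634904, minus strand: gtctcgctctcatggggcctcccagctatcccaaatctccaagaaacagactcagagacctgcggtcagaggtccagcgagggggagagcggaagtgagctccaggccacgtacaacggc

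In these stretches SRSF3 and HNRNPAB hold CCAAT boxes and a TATA box, while SRSF6 holds GC boxes alone and HNRNPH1 none of the 3 motifs. The stretch of SRSF1, whose log2 fold change of -0.35 equals that of SRSF3, holds none of them either. HNRNPC, at -0.06 and not called, holds a CCAAT box and a TATA box in its full window. A link between motifs and fold change was not tested. Over the full windows of 300 bases, both strands searched, a GC box was in 4 of 10 SR and 16 of 20 hnRNP promoters and in 44.6% of all 27305 windows. The CCAAT box was in 2 of 10 SR promoters, those of SRSF3 and SRSF8, in 13 of 20 hnRNP promoters and in 35.7% of all windows. TATAAA was in 2 of 10 SR promoters, SRSF3 and SRSF11, in 3 of 20 hnRNP promoters, HNRNPAB, HNRNPC and HNRNPD, and in 12.0% of all windows. An ETS motif (CCGGAAG) was in 2 of 10 and 3 of 20, against 10.7% of all windows. The motif GCATGCGC, part of the site of NRF1, was in the SRSF10 window alone, and in 3.27% of all windows. AAGATGG and TGACGTCA were in none of the 30 windows, and in 6.06% and 1.98% of all. A match of letters describes the window and does not show that a factor binds.

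Among the SR genes, the shared falls were close in size. SRSF3, the smallest SR protein and with SRSF7 a link between splicing and mRNA export, was at 324, 336 and 337 CPM in the control libraries and at 248, 277 and 256 CPM in the knockdown libraries. Its log2 fold change was -0.35 (SE 0.054, adjusted p = 1.23e-04), or 78.4% of control. SRSF1, the first SR protein to be characterised and a general splicing activator, was at 127, 133 and 131 CPM against 101, 108 and 98.2 CPM, with a log2 fold change of -0.35 (SE 0.0571, adjusted p = 2.33e-04). In both genes every knockdown library lay below every control library.

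SRSF2, a component of nuclear speckles, was at 188, 209 and 194 CPM in control and 150, 171 and 146 CPM in knockdown cells, a log2 fold change of -0.34 (SE 0.065, adjusted p = 8.69e-04). SRSF8, an intronless relative of SRSF2, was at 88.3, 91.3 and 87.0 CPM against 67.2, 72.7 and 72.3 CPM, a log2 fold change of -0.33 (SE 0.0592, adjusted p = 5.39e-04). SRSF6, which binds exonic enhancers, was at 296, 319 and 305 CPM against 244, 263 and 234 CPM, a log2 fold change of -0.31 (SE 0.0559, adjusted p = 5.02e-04). These 3 genes, like SRSF1 and SRSF3, stood at 78.4% to 80.5% of control, and no groups overlapped.

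SRSF7, an export adaptor with a zinc knuckle, fell less, from 164, 163 and 161 CPM to 142, 153 and 143 CPM. The log2 fold change was -0.16 (SE 0.0535, adjusted p = 0.0409), and 6 of the 14 alternative fits lost this call, among them every fit that left out 1 library except the fit without knockdown library 2. The adjusted p of the 6 fits was 0.0684 to 0.171.

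SRSF10 moved the other way. It codes for a splicing regulator that acts as a general repressor once it loses its phosphates, as in mitosis and after heat shock. It was at 277, 310 and 287 CPM in the control libraries and at 359, 384 and 348 CPM in the knockdown libraries, with no overlap. The log2 fold change was 0.32 (SE 0.0567, adjusted p = 4.94e-04), or 125% of control, and all 14 alternative fits kept the call. The ratio of SRSF10 to SRSF3 was 0.855, 0.924 and 0.853 in the control libraries and 1.45, 1.38 and 1.36 in the knockdown libraries, so that the more abundant of this pair differed between the groups in every library on the CPM scale. Per kilobase of exon, SRSF10 was at 28.4 CPM and SRSF3 at 46.7 CPM in control cells, and at 35.4 and 36.6 CPM in knockdown cells. The length used is that of all annotated exons, also those outside protein-coding transcripts, so levels of different genes compare only roughly. The 3′ end of SRSF10 lies 1341 bases from that of PNRC2 on the other strand of chromosome 1. PNRC2, an adaptor of mRNA decapping, also rose, from 131 to 181 CPM on average (log2 fold change 0.46, SE 0.069, adjusted p = 9.74e-05). In GENCODE, SRSF10 shares 0.0% of its exonic bases with other genes on either strand. Whether the counting used strand is not stated, and whether reads from PNRC2 transcripts enter the value of SRSF10 was not tested.

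The other 4 tested SR genes did not pass the test. SRSF4 had a log2 fold change of -0.08 (SE 0.0562, adjusted p = 0.302), although its knockdown libraries, at 116, 118 and 107 CPM, all lay below its control libraries at 120, 121 and 120 CPM. SRSF9 had -0.10 (SE 0.0656, adjusted p = 0.305), SRSF11 had -0.01 (SE 0.0642, adjusted p = 0.954) and SRSF5 had 0.00 (SE 0.0529, adjusted p = 0.988). SRSF5 was at 205, 219 and 218 CPM in control and 207, 220 and 215 CPM in knockdown cells, and the groups overlapped. By structure, 2 of the 5 SR genes with 2 RNA recognition motifs fell (SRSF1 and SRSF6), and of the 6 tested genes with 1 motif, 4 fell and 1 rose. These counts were not tested against each other.

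Per kilobase of exon, the SR genes of control cells were led by SRSF6, at 66.8 ± 2.49 CPM (SD, n = 3), and SRSF2, at 65.3 ± 3.71 CPM, which did not differ beyond their spread. SRSF3 followed at 46.7 ± 0.97 CPM, and then SRSF7, SRSF5 and SRSF1 at 40.2 ± 0.382, 39.9 ± 1.41 and 39.0 ± 0.972 CPM, close to their spread. SRSF4 was the lowest of the tested SR genes at 13.6 ± 0.0959 CPM. In knockdown cells SRSF5 was at 40.0 CPM per kilobase, above SRSF3, SRSF7 and SRSF1 at 36.6, 36.1 and 30.7 CPM. These ranks depend on the annotated length. Of the exonic bases, 73.2% of SRSF4 and 38.4% of SRSF3 lie outside protein-coding transcripts, against 5.8% of SRSF6 and 3.0% of SRSF2.

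Among the hnRNP genes, 8 of 22 fell and none rose at this threshold. At an unadjusted p under 0.05 in edgeR, HNRNPR and HNRNPD were lower as well and the number higher was still 0, and DESeq2 also called 0 of them higher.

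HNRNPAB, a relative of the A and B type hnRNP proteins that also binds DNA, was at 287, 243 and 259 CPM in control and at 195, 168 and 220 CPM in knockdown cells. The log2 fold change was -0.43 (SE 0.0799, adjusted p = 6.59e-04), the lowest of all 33 genes. Its coefficient of variation over the knockdown libraries was 13.3%, exceeded among the tested members by HNRNPA1L2 alone, at 15.1%. HNRNPH1, which binds runs of G, was at 467, 490 and 468 CPM against 381, 380 and 382 CPM. Its log2 fold change was -0.32 (SE 0.0479, adjusted p = 1.02e-04). The 3 knockdown libraries were nearly equal for this gene, and far from the control libraries.

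The close relatives of HNRNPH1 did not share one value. HNRNPH3 fell, from 110, 107 and 101 CPM to 89.2, 85.5 and 92.1 CPM (log2 fold change -0.25, SE 0.0588, adjusted p = 0.00437). HNRNPH2, on the X chromosome, had a log2 fold change of -0.02 (SE 0.0588, adjusted p = 0.884), and HNRNPF one of -0.02 (SE 0.0511, adjusted p = 0.791). The ratio of HNRNPH1 to HNRNPH2 was 5.19, 5.52 and 5.51 in control and 4.35, 4.20 and 4.61 in knockdown libraries, without overlap.

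HNRNPK, a poly(C) binding protein with KH domains, fell from 679, 670 and 665 CPM to 583, 578 and 588 CPM (log2 fold change -0.20, SE 0.0456, adjusted p = 0.0032). HNRNPL, which binds CA repeats, fell from 216, 208 and 192 CPM to 174, 170 and 188 CPM (log2 fold change -0.21, SE 0.0591, adjusted p = 0.0149). HNRNPM, which binds GU-rich sites, fell from 305, 313 and 302 CPM to 271, 272 and 266 CPM (log2 fold change -0.18, SE 0.0486, adjusted p = 0.00964). The call of HNRNPL was lost without control library 1 (adjusted p = 0.0748), without knockdown library 1 (adjusted p = 0.0636) and with cyclic loess, and that of HNRNPM with cyclic loess (adjusted p = 0.0704). All 3 had groups without overlap, and the gap was narrowest for HNRNPL, where 1 knockdown library at 188 CPM came near 1 control library at 192 CPM. HNRNPLL, a relative of HNRNPL known from CD45 splicing in lymphocytes, had a log2 fold change of 0.10 (SE 0.0589, adjusted p = 0.216), and its knockdown libraries all lay above its control libraries.

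HNRNPUL1, of the hnRNP U group, fell from 409, 384 and 391 CPM to 357, 322 and 358 CPM (log2 fold change -0.19, SE 0.0544, adjusted p = 0.016), a call lost without control library 1 (adjusted p = 0.0704), without control library 3 (adjusted p = 0.0532) and with cyclic loess. HNRNPU, which organises chromatin in the nucleus, had -0.09 (SE 0.0459, adjusted p = 0.175) and HNRNPUL2 had 0.05 (SE 0.058, adjusted p = 0.578). HNRNPA2B1, the member with the highest CPM, fell from 1080, 1080 and 1070 CPM to 976, 930 and 980 CPM (log2 fold change -0.16, SE 0.0454, adjusted p = 0.0144). This call was lost without control library 3 (adjusted p = 0.0591) and with cyclic loess (adjusted p = 0.202).

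HNRNPA1, the best known antagonist of SRSF1 in splice site choice, was at 920, 883 and 916 CPM in control and 867, 826 and 905 CPM in knockdown cells, and the groups overlapped. Its log2 fold change was -0.07 (SE 0.0487, adjusted p = 0.361). HNRNPC, which binds runs of U, had -0.06 (SE 0.0479, adjusted p = 0.423), and HNRNPA3 had -0.03 (SE 0.0491, adjusted p = 0.723). HNRNPD, also known as AUF1, which binds AU-rich elements and promotes decay, had -0.11 (SE 0.0526, adjusted p = 0.123), and HNRNPR had -0.12 (SE 0.054, adjusted p = 0.12). The remaining members, HNRNPA0, HNRNPDL, HNRNPA1P48 and HNRNPA1L2, had log2 fold changes of -0.12 to 0.11 and did not pass the test.

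Per kilobase of exon, HNRNPA1 was the most abundant hnRNP gene of control cells at 178 ± 4.03 CPM (SD, n = 3). HNRNPK at 131 ± 1.3 CPM, HNRNPAB at 123 ± 10.2 CPM and HNRNPA2B1 at 116 ± 0.477 CPM came next, and the spread of HNRNPAB reached both neighbours. In knockdown cells HNRNPA1 was at 170 CPM, HNRNPK at 114 CPM, HNRNPA2B1 at 104 CPM and HNRNPAB at 90.7 CPM. HNRNPF followed at 91.8 CPM in control and 90.4 CPM in knockdown cells. This order too depends on the annotated length. The share of exonic bases outside protein-coding transcripts was 7.5% for HNRNPA1, 27.4% for HNRNPK, 12.8% for HNRNPAB and 35.8% for HNRNPA2B1.

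**Figure D2:**
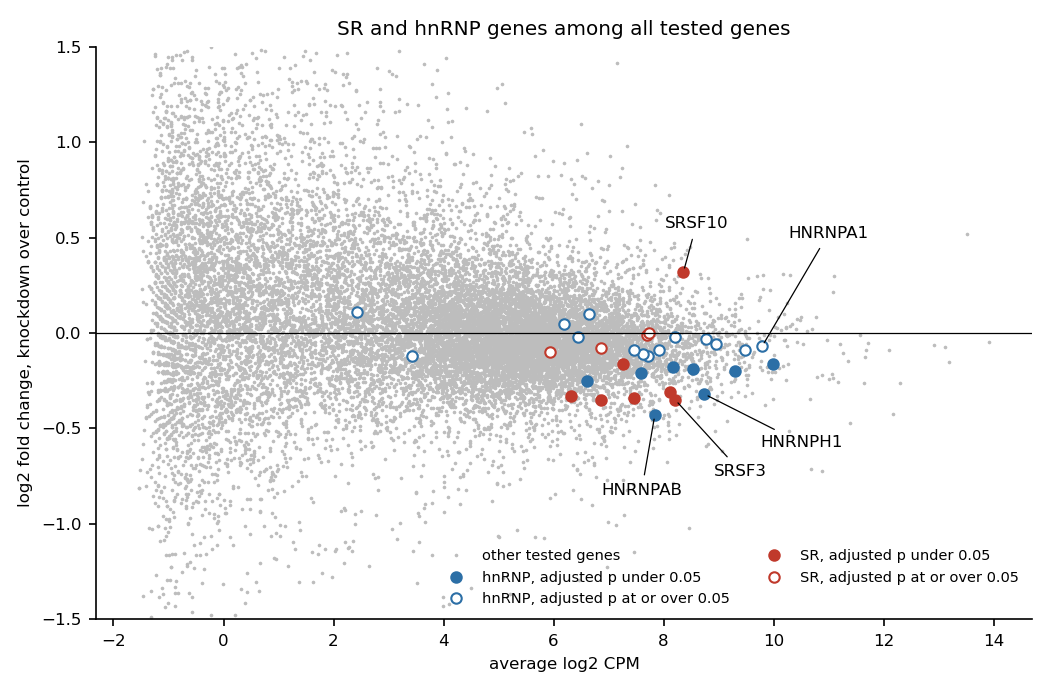
The log2 fold change of each tested gene (knockdown over control) is plotted against its average log2 CPM, with SR genes in red, hnRNP genes in blue and other tested genes in grey; filled circles have an adjusted p under 0.05, and 226 genes lie outside the plotted range of fold change. The called SR and hnRNP genes lie between -0.43 and -0.16, apart from SRSF10 at 0.32.

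Over both families, the median log2 fold change was -0.16 for the 11 SR genes and -0.10 for the 22 hnRNP genes, against 0.004 for all tested genes and -0.05 for the 6578 abundant ones. Below 0 lay 9 of 11 SR genes and 19 of 22 hnRNP genes, beside 49.3% of all tested genes and 62.3% of the abundant genes. The groups did not overlap for 7 SR genes that were lower and 1 that was higher, and for 12 hnRNP genes that were lower and 1 that was higher. Over all tested genes the groups were apart downward for 18.2% and upward for 20.6%. When the trend of fold change with level was removed by cyclic loess, a smoothing that makes libraries comparable at each level, the medians were -0.10 for SR and -0.04 for hnRNP genes. In that fit 8 SR genes and 14 hnRNP genes lay below 0, 5 SR and 4 hnRNP genes fell, and SRSF10 rose by 0.39. The 5 calls lost there were SRSF7, HNRNPL, HNRNPUL1, HNRNPM and HNRNPA2B1.

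Summed over all members, the SR genes gave 2054, 2182 and 2106 CPM in the control libraries and 1901, 2046 and 1868 CPM in the knockdown libraries, or 91.7% of control. The hnRNP genes gave 7573, 7460 and 7498 CPM against 6873, 6724 and 6947 CPM, or 91.2% of control. For each sum every knockdown library lay below every control library, narrowly for the SR genes. On this scale both families were thus lower by a like amount in total, and the ratio of SR to hnRNP was 0.282 ± 0.0106 in control and 0.283 ± 0.0186 in knockdown cells (SD, n = 3), with overlap. TMM factors do not remove the trend of fold change with level, and no sum was taken with cyclic loess, so how far the sums depend on that trend was not tested. Library 2 had the highest SR sum and the lowest hnRNP sum in each group. Per kilobase of exon the SR sum was 87.9% and the hnRNP sum 90.6% of control, and the ratio 97.1% of control. Without SRSF3, the SR gene with the highest CPM in control cells, the SR sum was 94.2% of control, and 2 of 3 knockdown libraries lay below every control library. Without SRSF10, the SR gene with the highest CPM in knockdown cells and the one that rose, the SR sum was 86.4% of control and the ratio of SR to hnRNP 94.8% of control, an alternative chosen after the data were seen. All 3 knockdown sums then lay below every control sum, and 2 of 3 ratios below every control ratio.

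**Figure D3:**
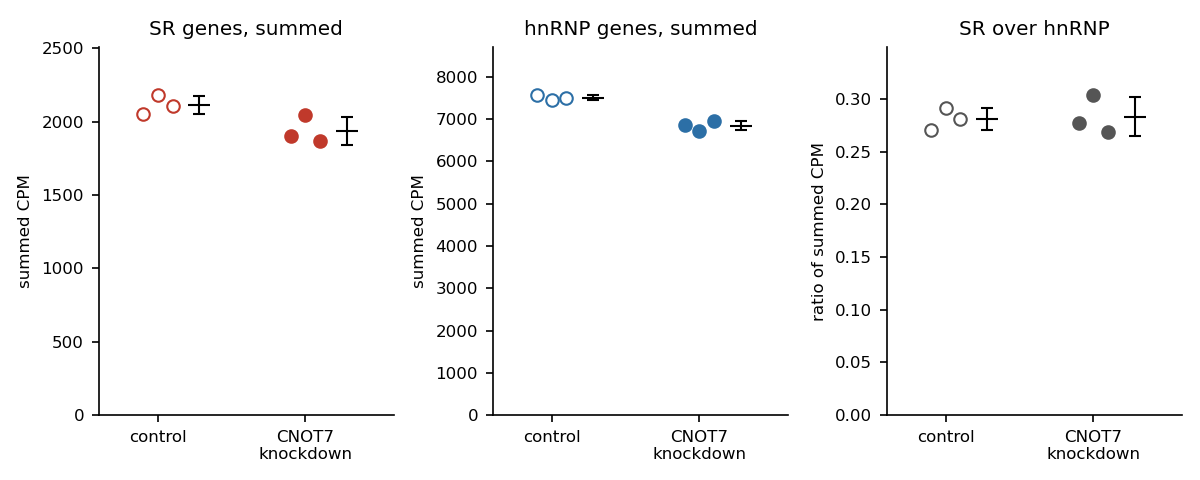
Summed CPM of the 12 SR genes and of the 27 hnRNP genes, and their ratio, in each library (open points control, filled points CNOT7 knockdown), with bars for the mean and SD of 3 libraries beside them; the axes start at 0. Both sums are lower in the knockdown libraries, at 91.7% and 91.2% of control, and the ratio overlaps between the groups.

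Each of these values is a sum over all isoforms of a gene. GENCODE release 29 lists at least 1 transcript subject to nonsense-mediated decay for all 11 tested SR genes and for 13 of 22 hnRNP genes. A median of 38.4% of the exonic bases of the SR genes, and 11.4% of those of the hnRNP genes, lie outside any transcript annotated as protein-coding. The counts therefore cannot separate an mRNA that codes for the protein from one with a poison exon. Some genes also share sequence with others. SRSF1 shares 56.6% of its exonic bases with AC015813.2 on the same strand, SRSF2 shares 36.7% with MFSD11 and SRSF9 46.2% with GATC on the opposite strand, and HNRNPUL2 shares 44.1% with HNRNPUL2-BSCL2. HNRNPH2 shares 16.3% with the readthrough gene RPL36A-HNRNPH2, and HNRNPU 15.6% with COX20 on the opposite strand. HNRNPA1 has 74 named pseudogenes, whose counts came to 1.493% of its own, so reads of the parent that map to copies, or the reverse, are uncertain.

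The other genes of the pathway were taken from 8 lists with 129 genes. Their counts stand beside 11.9% of all tested genes that fell and 13.3% that rose. Among tested genes with an average log2 CPM of at least 5, 20.7% fell and 10.6% rose. Of 11 genes for the kinases that phosphorylate SR proteins and for their transport, SRPK2 rose and 3 fell. SRPK2, a cytoplasmic SR protein kinase, was at 144, 159 and 152 CPM in control and 170, 187 and 171 CPM in knockdown cells (log2 fold change 0.21, SE 0.0586, adjusted p = 0.0135). NXF1, the mRNA export receptor, had -0.27 (SE 0.0598, adjusted p = 0.00276), the nuclear kinase CLK2 had -0.25 (SE 0.0673, adjusted p = 0.0117) and DYRK1A had -0.20 (SE 0.0626, adjusted p = 0.0257). The median of the list was -0.07. Of the 14 alternative fits, 12 kept the call of SRPK2, 13 that of CLK2, 9 that of DYRK1A and all 14 that of NXF1.

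Of 26 genes for other proteins with an RS domain, 12 fell and 2 rose, with a median of -0.14. The 12 include U2AF1, whose call is uncertain. U2AF2, the large subunit of the factor that binds the polypyrimidine tract, had -0.40 (SE 0.0724, adjusted p = 5.66e-04), BCLAF1 had -0.34 (SE 0.0638, adjusted p = 6.96e-04) and SCAF8 had -0.34 (SE 0.0657, adjusted p = 9.76e-04). LUC7L3, a U1 associated protein, rose by 0.20 (SE 0.0579, adjusted p = 0.0173) and RSRP1 by 0.18 (SE 0.0648, adjusted p = 0.0461). Of the 14 alternative fits, 11 kept the call of LUC7L3 but 4 that of RSRP1. The call for U2AF1, at -1.51 (SE 0.473, adjusted p = 0.0261), is uncertain, because its near-identical copy U2AF1L5 is annotated beside it. U2AF1 was at 26.7, 9.76 and 3.11 CPM and U2AF1L5 at 7.74, 8.38 and 54.1 CPM in control libraries, so the reads were split unevenly between the copies. In knockdown libraries U2AF1 was at 3.41, 3.23 and 7.22 CPM and U2AF1L5 at 11.4, 6.96 and 7.76 CPM, and the groups of both genes overlapped. DESeq2 did not call U2AF1 (adjusted p = 0.212), and its log2 fold change over the alternatives ran from -2.00 to -0.46, the latter without control library 1 (adjusted p = 0.33).

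Of 19 hnRNP proteins that carry other symbols, 10 fell and none rose, with a median of -0.16. The cold-inducible RBM3 fell from 187, 181 and 187 CPM to 133, 141 and 137 CPM (log2 fold change -0.43, SE 0.0526, adjusted p = 1.19e-05), and its relative CIRBP had -0.29 (SE 0.0692, adjusted p = 0.00522). SFPQ, a core paraspeckle protein, had -0.39 (SE 0.0502, adjusted p = 1.98e-05). TNPO2, 1 of 2 importins of hnRNP A1 type proteins, had -0.33 (SE 0.0562, adjusted p = 3.58e-04). MATR3, which did not pass the test, is split between 2 overlapping gene models, and its value, read from the model with more counts, is uncertain.

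In the core spliceosome, 5 of 22 tested genes for U1, U2 and Sm proteins fell and none rose (median -0.11), led by SF3B5 and SF3B4 at -0.34 and -0.29. Of 25 genes for the tri-snRNP, the Prp19 complex and helicases, 7 fell and none rose (median -0.11), led by DHX16 at -0.27. In nonsense-mediated decay, which removes the poison exon isoforms, 2 of 10 genes fell, SMG9 at -0.43 (SE 0.0727) and SMG5 at -0.34 (SE 0.0524), and none rose (median -0.09). Of 13 genes for CCR4-NOT and its adaptors, 3 fell, CNOT7 itself, CNOT9 at -0.24 and CNOT3 at -0.17. The call of CNOT3 held in 8 of 14 alternative fits and was lost with cyclic loess (adjusted p = 0.125) and when any 1 library other than control library 2 was omitted (adjusted p up to 0.131). CNOT8, the paralogue of CNOT7, rose from 65.6 to 80.2 CPM on average (log2 fold change 0.29, SE 0.0613, adjusted p = 0.00204). For the lists on hnRNP proteins under other symbols, on the core spliceosome, on nonsense-mediated decay and on importins, the number higher was also 0 at an unadjusted p under 0.05 and by DESeq2. Among tested genes with an average log2 CPM of at least 5, 20.7% fell. The counts that fell for nonsense-mediated decay, for U1, U2 and Sm proteins and for CCR4-NOT, with CNOT7 included, were near that share. The lists are described by their counts and were not tested as sets.

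**Figure D4:**
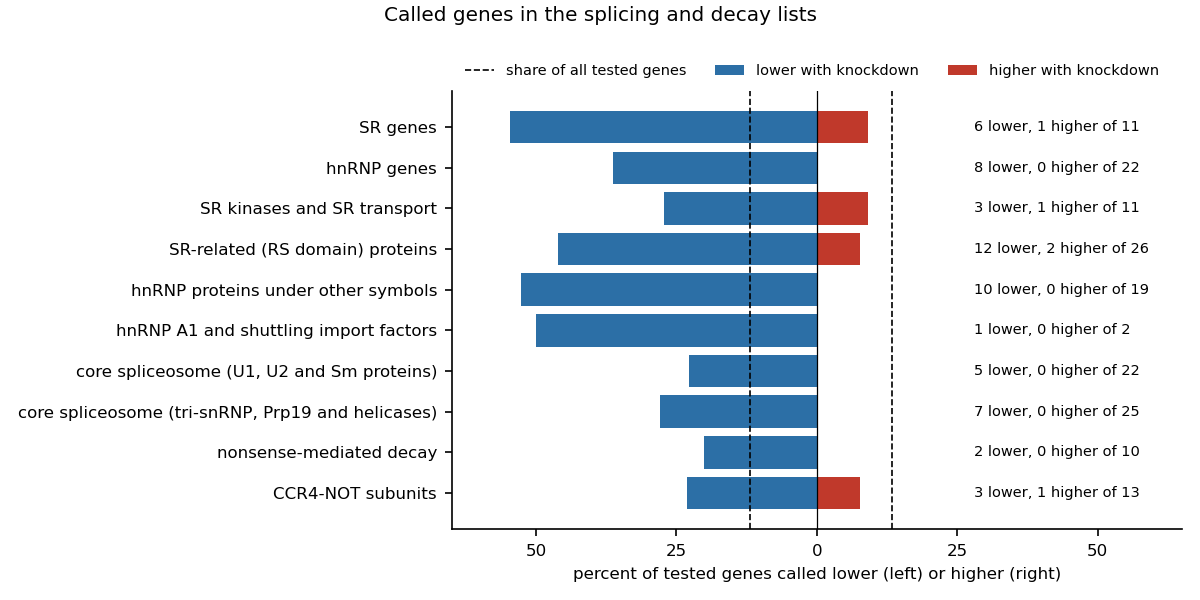
For the SR genes, the hnRNP genes and the 8 lists, bars give the percent of tested genes that fell (left, blue) or rose (right, red) with CNOT7 knockdown, with the counts printed beside them. Dashed lines mark the 11.9% of all tested genes that fell and the 13.3% that rose. Not drawn are the shares among tested genes with an average log2 CPM of at least 5, of which 20.7% fell and 10.6% rose. The bar for proteins with an RS domain counts the uncertain call of U2AF1.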

How the data were processed

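The authors deposited raw counts of reads per gene and library, with a gene length in bases. The submitters' processing notes name CASAVA 1.8, fastp, HISAT2 2.0.5, featureCounts 1.5.0-p3, DESeq2 1.20.0 and GRCh38. Strandedness and filters are not given in the sources used here. Total RNA was extracted with TRIzol. Identifiers, positions and lengths of 58734 of the 58735 genes equalled GENCODE release 29.

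The test was the quasi-likelihood test of edgeR 4.0.16 (R 4.3.3), knockdown against control without covariates, on the 17574 genes that passed filterByExpr and with TMM factors. The Benjamini-Hochberg adjustment ran over all tested genes. The threshold was 0.05, whatever the size of the change. SE is that of the log2 fold change. Levels are TMM-normalized CPM. Steps were tested on simulated data. Replicate libraries differed beyond sampling (chi-square per degree of freedom 3.05 to 9.62), so none is a copy.

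Values are given in every library for genes past the threshold and for the most abundant member of each family; of each related list, at most 4 genes past the threshold in each direction are named. The members and lists were chosen with earlier results of these data known. Some genes that the rule would name are not reported here. PNRC2 and U2AF1L5 were named after their values were seen. Alternatives were DESeq2 1.42.0, RLE factors, a replicate block, no filter, a minimum of 10 counts in each library, cyclic loess offsets (limma 3.58.1), GC content and length offsets (loess, span 0.3), protein-coding genes only, and each library left out in turn. Tables and plots used Python 3.11.15, pandas 2.3.3, numpy 2.4.6 and matplotlib 3.10.9. Promoters came from RefSeq.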

Additional observations from a re-analysis of the deposited data

How the results depend on the processing

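Of the 15 SR and hnRNP genes that changed, 10 kept the call in all 14 alternative fits, and no value changed sign among them. The cyclic loess offsets left 4 hnRNP genes lower, 31 genes called in the related lists against 47, and medians of -0.10 for SR and -0.04 for hnRNP genes. The GC content and length offsets gave 13 hnRNP genes lower, 87 genes called in the related lists, a median of -0.20 for SR genes and 4597 of all genes lower, so that 34.6% of all calls were higher against 52.6%. The cause of these shifts was not tested. DESeq2 and the fit without a filter each gave a median of -0.17 for SR genes. With SRSF10 left out, an alternative chosen after the data were seen, the summed SR level was 86.4% of control against 91.7%. The replicate numbers were not shown to pair the libraries: same-numbered libraries had correlations of deviations of 0.046, 0.241 and -0.008. With the replicate block, 3306 of all genes were lower, 74 genes were called in the related lists, and HNRNPR, HNRNPD and HNRNPU joined the genes that were lower. Leaving out 1 library at a time gave 5 to 6 SR and 6 to 8 hnRNP genes lower, 1367 to 2219 of all genes lower, and 26 to 47 genes called in the related lists. It gave medians of -0.19 to -0.15 for SR genes, and a difference of medians, SR minus hnRNP, of -0.09 to -0.03 against -0.05. All genes lower and the list count were lowest without control library 3, at 1367 and 26. The list count was 31 without control library 1, and also without knockdown library 1. With 3 libraries per group, SEs near 0.05 on the log2 scale limit which smaller changes can be called.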

Other observations

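SRSF10 was not the single gene to rise in its part of chromosome 1. Of 10 other tested protein-coding genes within 250000 bases, chosen after the values were seen, PNRC2, FUCA1 and MYOM3 were higher with CNOT7 knockdown. PNRC2 was at 120, 143 and 131 CPM in control and 171, 197 and 173 CPM in knockdown libraries, without overlap. MYOM3, which codes for a protein of the muscle M band, had a log2 fold change of 0.57 (SE 0.1, adjusted p = 4.23e-04) and FUCA1 one of 0.19 (SE 0.0561, adjusted p = 0.0216), by edgeR's quasi-likelihood test. All 14 alternative fits kept the calls of PNRC2 and MYOM3, and 10 of them that of FUCA1.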
